A study of Bos taurus with 61 samples.

Results

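The hypothalamic-pituitary-adrenal axis turns a stress signal from the brain into glucocorticoid. Neurons of the hypothalamus release corticotropin-releasing hormone (CRH), which acts through its receptor (CRHR1) on corticotrophs of the anterior pituitary gland and is held back by a binding protein (CRHBP). Corticotrophs cut proopiomelanocortin (POMC) to adrenocorticotropin, which drives cortisol synthesis in the adrenal cortex through the melanocortin 2 receptor (MC2R). In the target tissue, 11beta-hydroxysteroid dehydrogenase type 1 (HSD11B1) regenerates cortisol from inactive cortisone, type 2 (HSD11B2) inactivates it, and the glucocorticoid receptor (NR3C1) binds it and regulates transcription.

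These 8 genes, chosen by name as the signals, receptors and enzymes of the axis, were followed through 8 tissues of Brangus heifers (a Brahman and Angus composite). They are 8 of the 24616 genes measured, and 3 of them (CRHBP, HSD11B1 and NR3C1) carry no symbol in the data and were identified by their neighbouring genes. Heifers were classed by serum progesterone as pre-pubertal (PRE) or post-pubertal (POST), and POST heifers were killed months later, in the mid-luteal phase, and were older and heavier, so that puberty, luteal progesterone, age and season cannot be told apart. RNA-Seq was made from 61 libraries of 8 heifers, 30 PRE and 31 POST, and all tissues of a stage came from the same animals. The tissues were hypothalamus (HYP, the block that lies between optic chiasm and arcuate nucleus), pituitary gland (PIT, anterior and posterior), uterus (UTE), endometrium (END), ovary (OVA, with corpus luteum and antral follicles in POST but antral follicles only in PRE), adipose tissue (FAT), liver (LIV) and *longissimus dorsi* muscle (LDM). The adrenal gland was not sampled.

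Every value is the authors' mean over the libraries of 1 tissue and stage, as RPKM, the reads of a gene divided by its exon length and by the size of the library, a level per length that can be compared between genes. No spread between heifers is known here, so no difference has a replicate check and none is called significant. A gene was compared between stages in a tissue where a stage reached RPKM 0.2, and counted as apart where the means, with 0.2 added to each, lay at least 4-fold apart. Intervals given for read ratios are exact 95% intervals from the summed unique reads, scaled to the group's total (CPM), and cover counting error only. In bulk tissue, fewer cells of a type and less RNA per cell cannot be told apart.

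The sums of mean unique reads ran from 17109554 to 27132722 per group. Fractions of the means showed 3 libraries behind each hypothalamus group, where 4 are labelled, and 4 behind the PRE pituitary gland, where 3 are labelled. Adipocyte, skeletal muscle, liver and pituitary hormone markers were each summed highest in their own tissue. Markers of other tissues or layers were far apart between the stages in some groups: the summed level of 6 of 6 pituitary hormone genes was 143 in the PRE and 29993 in the POST ovary, that of 8 of 8 liver genes was 48.4 in the PRE and 2074 in the POST adipose tissue, and that of 3 of 3 smooth muscle genes was 1539 in the PRE and 96.7 in the POST endometrium. In the pituitary gland, the summed level of 4 of 4 endothelial genes was 250 in PRE against 18.5 in POST. In the hypothalamus, the summed smooth muscle level was 52.8 in PRE against 10.4 in POST, that of the pituitary hormone genes 40.6 and 262, and that of 3 of 3 skeletal muscle genes 9.54 and 40.0. In muscle, 3 of the 4 adipocyte genes, those matched, were summed at 476 and 33.9, and the smooth muscle gene MYH11 was at 6.90 and 174. The values are taken up again beside the larger differences of the members.

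CRH was a hypothalamic transcript in both stages. The gene (ENSBTAG00000033128, chr14:32213577-32215193 in UMD3.1) had a mean RPKM of 2.46 in the PRE and 9.13 in the POST hypothalamus, while no other group passed 0.062. The POST level in the hypothalamus was thus 39.1-fold above that in the next tissue, the ovary, and the PRE level 10.2-fold, with 0.2 added. Between the stages CRH differed by 1.81 on the log2 scale, a 3.51-fold higher level in POST that stayed below the 4-fold rule. It rested on 190 unique reads in PRE and 692 in POST, a CPM ratio of 3.37 (2.86 to 3.97). Of the 15380 genes compared in hypothalamus, 0.416% were apart by 4-fold and 1.72% were higher in POST by 2-fold or more.

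Markers of other hypothalamic neurons also differed between the stages. OTP, a transcription factor of the neurons that make CRH, was at 1.75 in PRE against 4.26 in POST, and SIM1, another such factor, at 1.32 and 1.69. Vasopressin (AVP), which acts with CRH on corticotrophs, was lower in POST, at 928 and 663. HCRT, the orexin precursor of the lateral hypothalamus, was at 12.6 and 115, and TRH at 13.4 and 27.7. The summed level of these hypothalamic neuron markers with oxytocin (6 of 6) was 1514 in PRE against 1881 in POST. Genes of other tissues moved as well: MYH11 of smooth muscle was at 17.5 and 3.29, and pituitary PRL at 31.3 and 180. The paper also reports that some hypothalamus samples were sequenced earlier, on another instrument and with shorter reads. Their stage, and whether they entered these means, is not stated. The part of sequencing, of dissection and of these tissues in the differences of CRH, CRHR1 and CRHBP was not tested.

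The receptor and the binding protein of CRH were also higher in POST hypothalamus. CRHR1 (ENSBTAG00000002749, chr19:46456088-46483532) was at RPKM 2.80 in PRE against 7.24 in POST, 1.31 on the log2 scale, with a CPM ratio of 2.22 (2.01 to 2.45). CRHBP (ENSBTAG00000020202, chr10:8038070-8052118) was at 3.34 and 6.39, 0.89 on the log2 scale, with a CPM ratio of 1.84 (1.62 to 2.08). All 3 genes of the CRH system therefore leaned the same way, and none of the 6 members compared in hypothalamus was apart by 4-fold, whereas CRH and CRHR1 were by 2-fold. NR3C1 (0.27 on the log2 scale) and POMC (0.12) differed less there, and the median of the 6 was 0.58 against 0.07 for all genes compared.

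**Figure D1:**
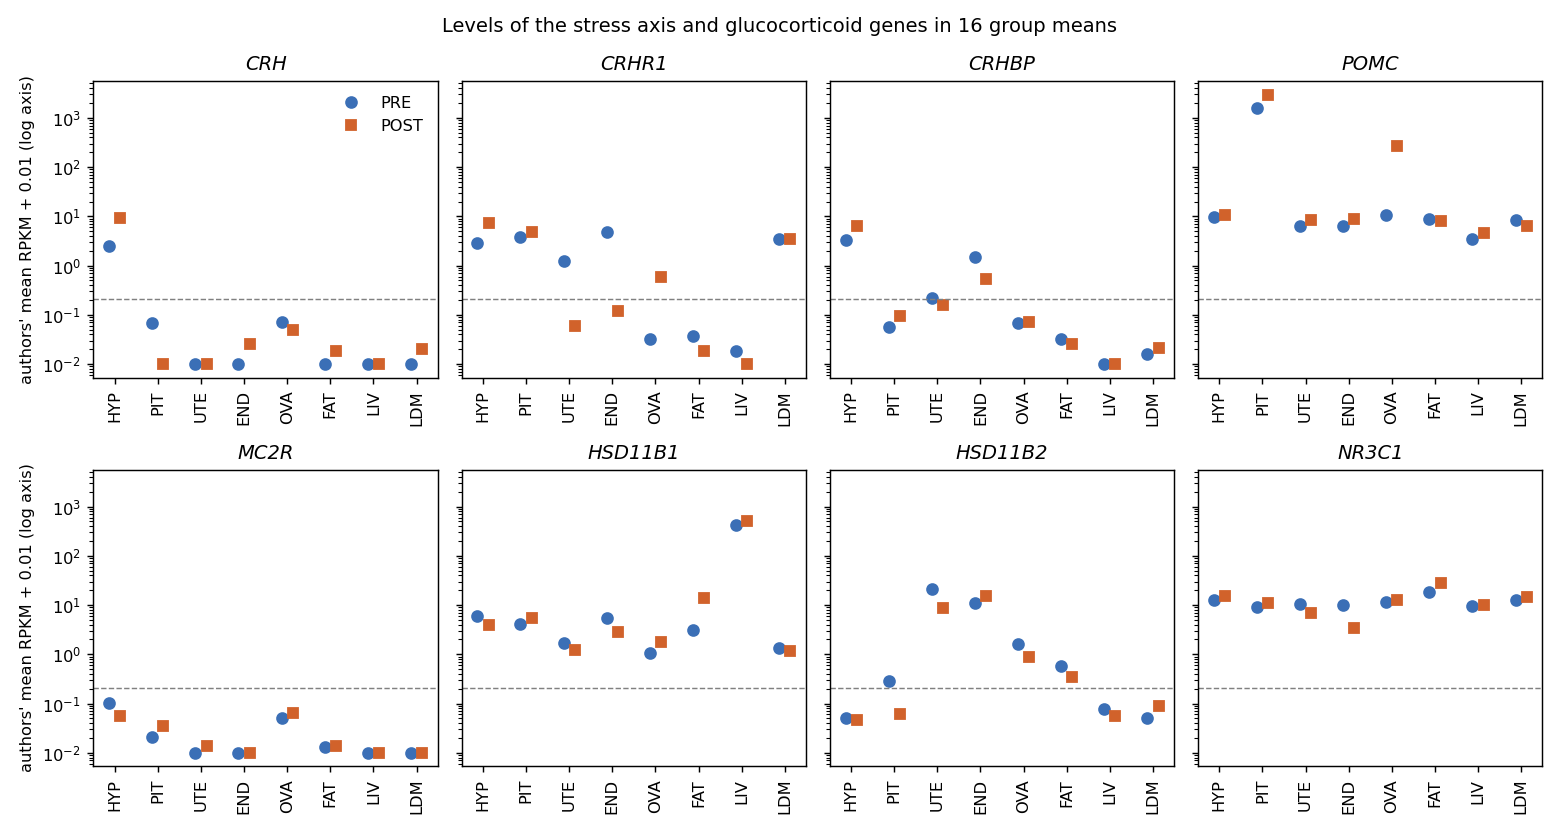
Mean RPKM of each gene (log axis, 0.01 added so that a level of 0 can be drawn) in the 8 tissues, for PRE (circles) and POST (squares) heifers. Each point is the authors' mean of a group and has no error bar because single libraries are not given. The dashed line marks RPKM 0.2. CRH stands above it in the hypothalamus only, POMC is highest in the pituitary gland (1563 and 2986), HSD11B1 in the liver (427 and 508), HSD11B2 in uterus and endometrium, and MC2R stays below the line in every group.

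Outside the brain, CRHR1 was found in pituitary gland and muscle at both stages, and in the reproductive tract at a level that depended on stage. In the pituitary gland, where it receives the CRH signal, it was at RPKM 3.86 in PRE against 4.77 in POST, a difference of 0.29 on the log2 scale. In muscle it was at 3.51 in both stages. Liver and adipose tissue did not pass 0.027. The order of the PRE levels was endometrium, pituitary gland, muscle, hypothalamus and uterus, and that of the POST levels hypothalamus, pituitary gland, muscle and ovary, with the remaining tissues at 0.11 or below.

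In the reproductive tract CRHR1 was far lower in POST heifers. In endometrium it was at RPKM 4.72 in PRE against 0.11 in POST, -3.99 on the log2 scale, from 1177 and 31 unique reads (CPM ratio 0.0219, 0.0148 to 0.0312). In uterus it was at 1.24 and 0.05, -2.53 on the log2 scale, from 509 and 36 reads (CPM ratio 0.0605, 0.0419 to 0.0848). It was the only member apart by 4-fold of the 6 compared in endometrium, where 6.54% of all genes were apart and 3.31% were lower in POST, and the only one of the 6 compared in uterus, where 2.94% were apart and 1.61% were lower in POST. With 1 added to RPKM in place of 0.2, the uterus difference was -1.10 and no longer passed the rule, while that in endometrium was -2.37.

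Cell type markers differed between the stages in endometrium, and less in uterus. Smooth muscle myosin MYH11 was at RPKM 469 in the PRE and 21.6 in the POST endometrium, but at 601 and 727 in uterus, where the summed smooth muscle level was 1952 in PRE against 2333 in POST. The epithelial gene EPCAM was at 71.6 and 222 in endometrium and at 50.5 and 73.4 in uterus. The other matched epithelial genes were mixed in uterus: KRT18 was at 22.04 and 23.8, KRT8 at 27.1 and 22.8, and FOXA2 at 5.58 and 4.84. The median difference over the 4 epithelial genes was -0.04 on the log2 scale in uterus and 1.49 in endometrium. The part of cell composition in the CRHR1 differences was not tested in either tissue. MC4R, a melanocortin receptor of the brain, had a pattern like that of CRHR1, at 1.72 and 0.041 in endometrium and at 3.72 and 0.02 in uterus.

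CRHBP in endometrium went the same way, at RPKM 1.49 in PRE against 0.53 in POST, -1.21 on the log2 scale with a CPM ratio of 0.472 (0.359 to 0.618). In uterus it was at 0.206 and 0.15, near the limit for comparison. Elsewhere outside the brain CRHBP did not pass 0.085, and it was 0 in liver in both stages. In POST, hypothalamus exceeded the next tissue by 9.01-fold with 0.2 added, and in PRE by 2.10-fold.

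In ovary CRHR1 was higher in POST, at 0.023 and 0.586, from 11 and 296 reads. The difference of 1.82 on the log2 scale missed the rule, and with 0.05 added it was 3.12 and passed. The POST level was 12.3% of that in POST pituitary gland, in a group that held pituitary hormone transcripts, as described for POMC.

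POMC (ENSBTAG00000007897, chr11:74109410-74116893) was by far the most abundant of the 8 genes. In the pituitary gland its mean RPKM was 1563 in PRE against 2986 in POST, rank 32 and rank 6 among all genes there, a difference of 0.93 on the log2 scale. The pituitary median over all genes was 0.11, the largest shift of any tissue. None of the 5 members compared in pituitary gland was apart by 4-fold, against 2.55% of all genes. In the hypothalamus, where neurons of the arcuate nucleus make POMC, it was at 9.70 and 10.6, close to its level in adipose tissue (8.75 and 7.90) and muscle (8.38 and 6.29).

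Among genes that act with POMC, several were also higher in POST pituitary gland. The prohormone convertase PCSK1, which releases adrenocorticotropin from POMC, was at RPKM 18.9 in PRE against 37.2 in POST. PCSK2, which cuts further to the melanotropins, was at 16.4 and 19.5, but its CPM ratio was 0.987 (0.955 to 1.02), so that its direction depended on the measure. Carboxypeptidase E (CPE) was at 143 and 189. The vasopressin receptor of corticotrophs, AVPR1B, was at 1.89 and 3.28. Of the hormones of other pituitary cells, PRL was at 98325 and 167975 and TSHB at 360 and 613. GH1 (55163 and 52868), CGA (8650 and 4453), LHB (1952 and 1820) and FSHB (238 and 183) were lower in POST. The endothelial gene VWF was at 72.3 and 5.01. The part of cell composition in the POMC difference was not tested.

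A low level of POMC was present in every tissue: RPKM 3.47 to 10.7 in the 7 tissues other than the pituitary gland in PRE, and 4.51 to 10.6 in 6 of them in POST. The exception was the POST ovary, at 268 against 10.7 in PRE, a difference of 4.62 on the log2 scale from 48356 and 1071 reads (CPM ratio 39.3, 36.9 to 41.7). It was the only member apart by 4-fold of the 5 compared in ovary, where 1.94% of all genes were apart and 1.38% were higher in POST.

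The pituitary hormone genes moved with POMC in that group. POMC in POST ovary was at 8.96% of its level in POST pituitary gland. All 6 hormone genes (PRL, GH1, CGA, LHB, FSHB and TSHB) were at 9.47% to 46.7% of theirs, with a median of 17.8%, and none was at 0. In PRE ovary they were at 0.0453% to 0.158%. PRL was at RPKM 106 in the PRE and 15908 in the POST ovary, and PAX7, a transcription factor of the intermediate lobe, at 0 and 0.21. The ratio of unique reads to RPKM also stood apart for POMC in POST ovary, at 45.2 against 22.3 to 33.1 in the other 15 groups. PRL (36.5 against 19.1 to 28.3), GH1, CGA and FSHB were likewise above their other groups. LHB (5.21 against 2.94 to 31.2) and TSHB (9.01 against 5.01 to 15.5) were not. Whether ovarian cells gave any part of the POMC transcripts was not tested. Without the ovary, 3 of the members' pairs of gene and tissue were apart in place of 4.

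**Figure D2:**
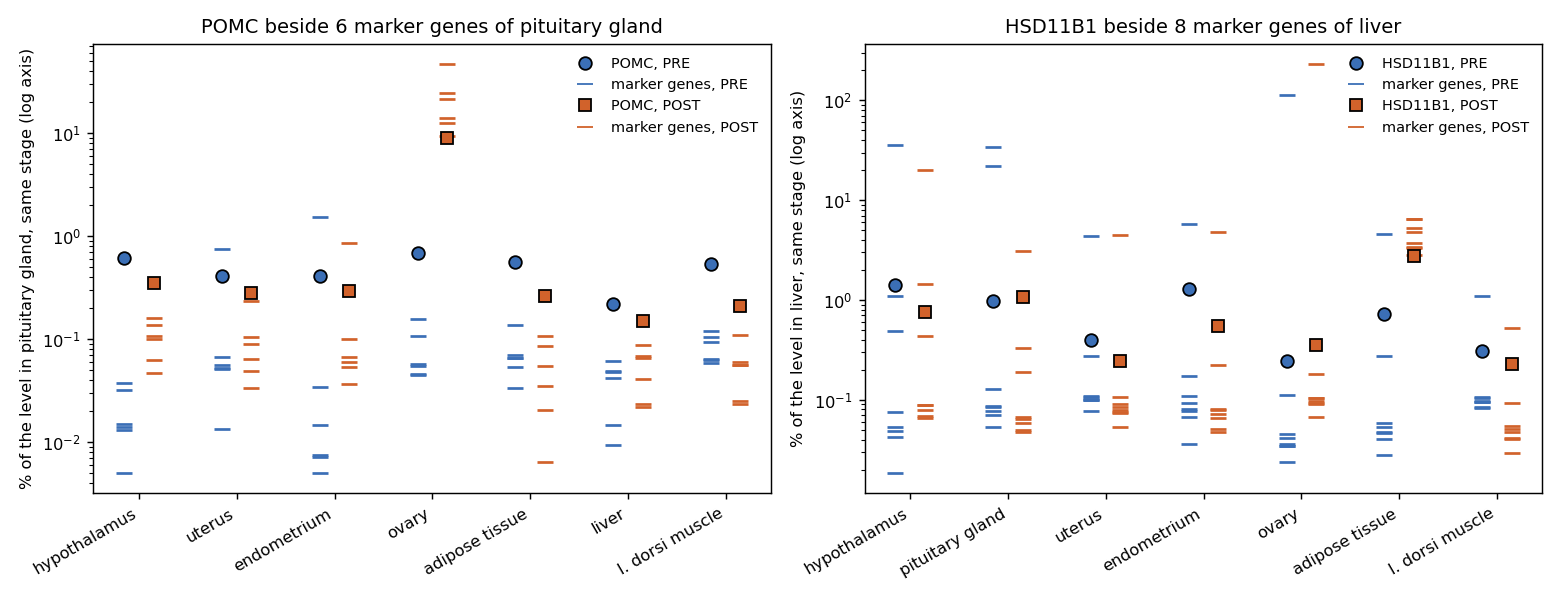
Left, POMC (filled symbols) and the 6 pituitary hormone genes (dashes) in each other tissue, as a percentage of their level in the pituitary gland of the same stage. Right, HSD11B1 and 8 liver genes as a percentage of their level in liver. Both axes are logarithmic, shares below 0.005% are drawn at that value, and circles and squares are PRE and POST. In POST ovary POMC (8.96%) lies just below the range of the hormone genes (9.47% to 46.7%), and in POST adipose tissue HSD11B1 (2.76%) lies just below that of the liver genes (2.83% to 6.53%).

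MC2R (ENSBTAG00000011038, chr24:44006264-44024553), the adrenocorticotropin receptor, was near the floor in all 16 groups. Its highest mean RPKM was 0.094, in PRE hypothalamus, so it was compared in no tissue. In 7 groups it was listed at RPKM 0 although all 7 had unique reads assigned to it, and over the 16 groups it had 4 to 22.7 mean unique reads. Its accessory protein MRAP, which carries the receptor to the cell surface, was at 0.236 in the PRE and 5.06 in the POST ovary, and at 1.96 and 0.957 in liver.

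HSD11B1 (ENSBTAG00000015086, chr16:75463612-75508770) was a liver transcript. It was at RPKM 427 in the PRE and 508 in the POST liver, rank 146 and rank 123 there, with a difference of 0.25 on the log2 scale. The liver exceeded the next tissue by 68.1-fold in PRE and by 35.7-fold in POST. H6PD, which supplies the cofactor for the enzyme in the endoplasmic reticulum, was also highest in liver, at 18.2 and 20.6. None of the 3 members compared in liver (POMC, HSD11B1 and NR3C1) was apart, against 0.0812% of all genes.

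In adipose tissue HSD11B1 was at RPKM 3.09 in PRE against 14.02 in POST, 2.11 on the log2 scale. It was the only member apart of the 4 compared in adipose tissue, where 2.08% of all genes were apart and 1.95% were higher in POST. In unique reads the difference was smaller, 828 and 1943, a CPM ratio of 2.86 (2.64 to 3.11), and on CPM (1.49) or with 1 added to RPKM (1.88) it did not pass the rule. Albumin (ALB), made by hepatocytes, was at 17.2 in the PRE and 1098 in the POST adipose tissue, and the 8 liver genes at a median of 0.0507% of their liver level in PRE and of 4.25% in POST. HSD11B1 was at 0.724% of its liver level in PRE and at 2.76% in POST. Of the glucocorticoid genes, AKR1D1 (a liver steroid reductase) was at 0.091 and 5.59, and TAT (tyrosine aminotransferase) at 0.092 and 4.15, in the same tissue. The part of adipose cells in the difference was not tested.

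In the remaining 6 tissues HSD11B1 lay between 1.05 and 6.07. It was highest among these in PRE hypothalamus, at 6.07 against 3.84 in POST, where it was the one gene of the 6 lower in POST (-0.63 on the log2 scale). In endometrium the direction depended on the measure: RPKM was 5.55 in PRE against 2.78 in POST (-0.95 on the log2 scale), while unique reads were 899 and 1119, a CPM ratio of 1.03 (0.946 to 1.13). The ratio of unique reads to RPKM of this gene ran from 31.6 in PRE liver to 169 in POST uterus, whereas that of NR3C1 ran from 94.7 to 123 over its groups other than POST ovary. Which unique reads stay out of RPKM was not tested.

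HSD11B2 (ENSBTAG00000005685, chr18:35159766-35165470), in contrast, was highest in the uterus and its lining. It was at RPKM 21.5 in the PRE and 8.79 in the POST uterus, -1.27 on the log2 scale with a CPM ratio of 0.414 (0.390 to 0.439). In endometrium it was at 11.3 and 15.4, 0.44 on the log2 scale, with a CPM ratio of 1.30 (1.21 to 1.40). The tissue with the highest level was thus the uterus in PRE and the endometrium in POST. The epithelial genes moved with stage in endometrium more than HSD11B2 did: summed over 4 of the 5 listed, they were at 145 and 425 there. In uterus these genes were summed at 105 and 125, while their median difference was -0.04 on the log2 scale. Ovary followed, at 1.61 and 0.859, and adipose tissue, at 0.576 and 0.330, with POST the lower in both. In the pituitary gland it was at 0.282 in PRE against 0.052 in POST, beside the lower endothelial genes there (CLDN5 at 87.7 and 0.637). The part of these cell types in the HSD11B2 differences was not tested. Hypothalamus, liver and muscle did not pass 0.078.

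The 2 enzymes thus had opposite distributions. HSD11B1 exceeded HSD11B2 in 11 of 16 groups, and HSD11B2 exceeded HSD11B1 in both uterus groups, both endometrium groups and PRE ovary. On the log2 scale with 0.2 added, the ratio of HSD11B1 to HSD11B2 was 10.65 in the PRE and 11.01 in the POST liver, and -3.52 and -2.65 in uterus. In ovary it was -0.54 in PRE against 0.91 in POST, the only tissue where the sign differed between the stages. In endometrium it was -0.99 and -2.39, and in adipose tissue 2.08 and 4.75, the largest difference between stages (2.66), in the group that held liver transcripts. These ratios rest on RPKM alone. HSD11B1 had 139 unique reads per RPKM in PRE ovary and 31.6 in PRE liver, while HSD11B2 had 35.2 to 64.8 in its groups other than POST ovary. In PRE ovary HSD11B1 had more mean unique reads (145.5) than HSD11B2 (71.75). In endometrium the CPM ratios of POST over PRE were 1.03 for HSD11B1 and 1.30 for HSD11B2. On reads the stage differences of the 2 enzymes thus lay closer together there than on RPKM. In adipose tissue the CPM ratios were 2.86 and 0.571, in opposite directions as on RPKM. The signs, and the stage differences of the ratio in the other tissues, were not tested on reads.

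**Figure D3:**
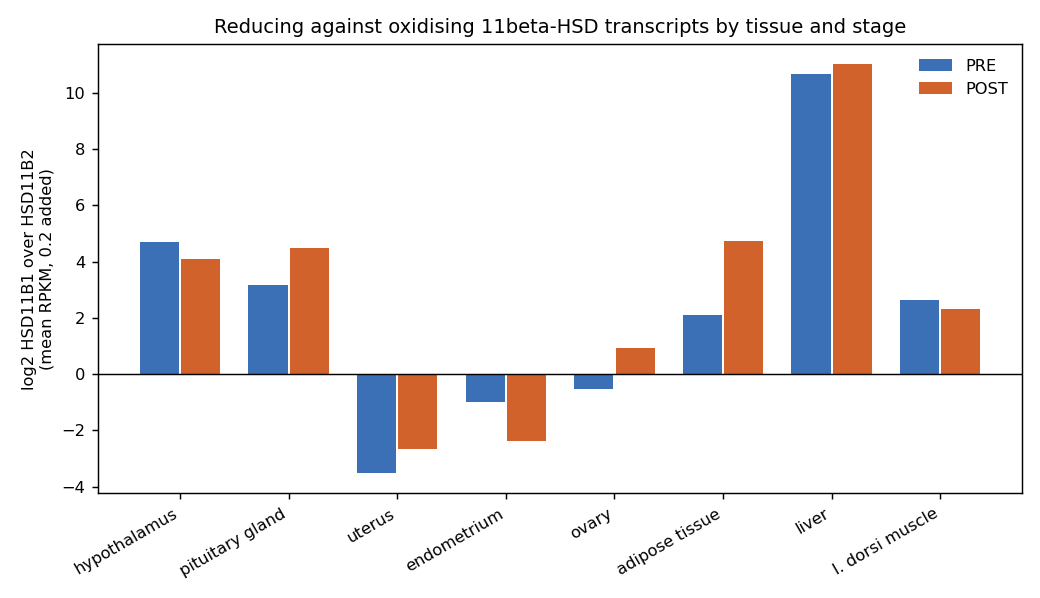
Bars give the log2 ratio of HSD11B1 to HSD11B2 mean RPKM (0.2 added to each) in PRE and POST heifers. Bars above 0 mean more HSD11B1 and bars below 0 more HSD11B2. The uterus (-3.52 and -2.65) and the endometrium (-0.99 and -2.39) lie below 0 in both stages, the ovary crosses 0, and the liver is highest (10.65 and 11.01).

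NR3C1 (ENSBTAG00000019472, chr7:56235966-56350171) was expressed in every tissue. It lay between RPKM 8.96 and 17.99 in all 8 PRE tissues, 2.01-fold from the lowest to the highest and the narrowest of the 8 genes in fold, and its Shannon entropy over tissues (3 for a perfectly even gene) was 3.00 in PRE against 2.97 in POST. Adipose tissue was highest in both stages, at 17.99 and 27.6, with a CPM ratio of 1.54 (1.49 to 1.58). Muscle and hypothalamus followed, at 12.8 and 14.7 and at 12.8 and 15.5.

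The POST endometrium was the exception to this even level. NR3C1 was at RPKM 10.2 in the PRE and 3.45 in the POST endometrium, -1.51 on the log2 scale, with a CPM ratio of 0.313 (0.292 to 0.336). In uterus it was at 10.6 and 6.96, -0.59 on the log2 scale. The mineralocorticoid receptor NR3C2, which also binds cortisol, was at 2.86 and 1.01 in endometrium and at 1.76 and 2.38 in uterus. By 2-fold, 3 of 6 members were lower in POST endometrium (CRHR1, CRHBP and NR3C1), where 13.5% of all genes were, and 2 of 6 in uterus (CRHR1 and HSD11B2), where 7.25% were. The smooth muscle and epithelial values given for CRHR1 stand beside NR3C1 and CRHBP in endometrium as well, and their part in these differences was not tested.

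**Figure D4:**
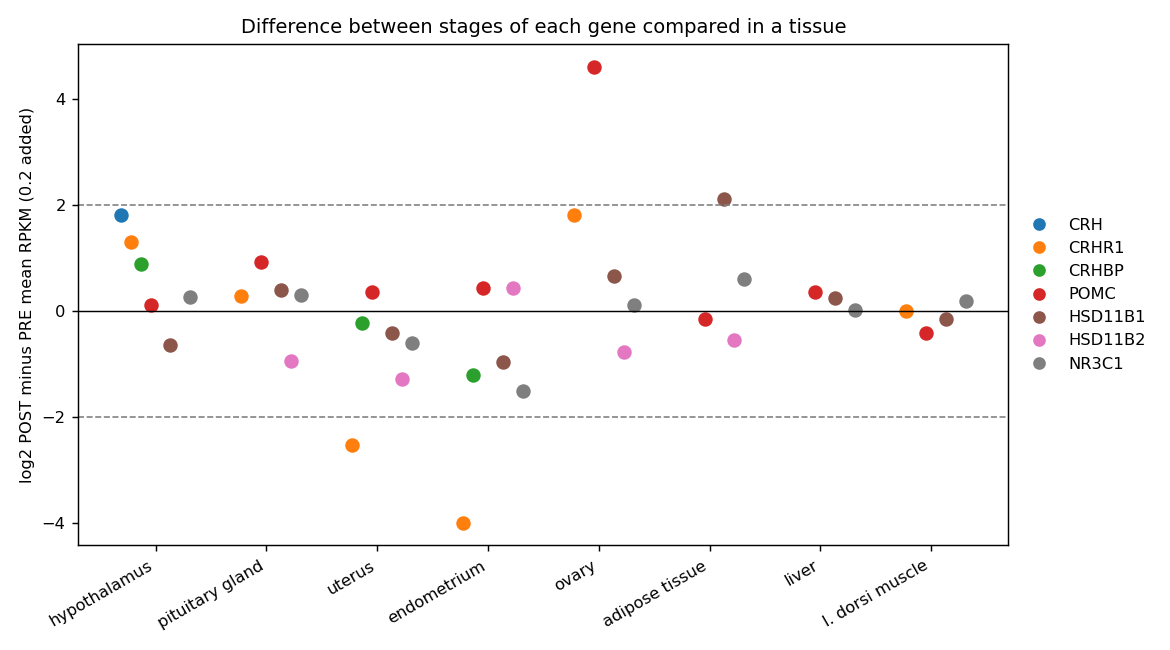
Difference between the stages, as log2 POST minus log2 PRE mean RPKM with 0.2 added, for each gene in each tissue where it was compared (39 points, 1 per gene and tissue). Dashed lines mark the 4-fold rule. Beyond the lines lie CRHR1 in uterus (-2.53) and endometrium (-3.99), POMC in ovary (4.62) and HSD11B1 in adipose tissue (2.11).

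Over all tissues, 39 of the 64 pairs of gene and tissue could be compared and 4 were apart by 4-fold, 2 higher and 2 lower in POST, where 2.23% of such pairs of all genes were apart. By 2-fold it was 10 pairs, 5 in each direction, against 8.33%. The members were chosen with earlier results of these data known, so these shares may come from that choice. In muscle none of the 4 members compared was apart (0.729% of all genes). By tissue, CRH, POMC and HSD11B1 exceeded every other tissue by at least 4-fold at an RPKM of 1 or more in both stages and CRHBP in POST, which makes 7 of 16 pairs of gene and stage. The same held for 12.4% of the 15549 genes that reached RPKM 1 in a tissue in PRE, and 13.6% of 15607 in POST. MC2R reached RPKM 1 in neither stage, so its pairs are among the 16 but outside that base.

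The rest of the pathway was described by a list of 48 other genes, of which 38 were matched. The list was chosen with earlier results of these data known, so its share apart may come from that choice. Between the stages, 19 of its 224 pairs of gene and tissue compared were apart by 4-fold (8.48%, against 2.23% of such pairs of all genes): 1 in hypothalamus, 4 in uterus, 4 in endometrium, 4 in ovary, 5 in adipose tissue, 1 in muscle, and 0 in pituitary gland and liver. By tissue these are 1 of 32, 4 of 29, 4 of 28, 4 of 30, 5 of 26 and 1 of 23 pairs, beside 0.416%, 2.94%, 6.54%, 1.94%, 2.08% and 0.729% of all genes. The list's median difference lay between -0.33 in uterus and 0.09 in hypothalamus on the log2 scale, beside -0.04 and 0.07 for all genes. With 0.2 added, its 5 matched ligands and receptors held none apart by 4-fold in any tissue. AVP was higher in POST by 2-fold in uterus (0.033 and 0.558), ovary (0.153 and 0.8), adipose tissue (0.081 and 0.377) and liver (0.017 and 0.629). The paper also reports AVP as up-regulated in these tissues. By its own model on normalized values, it ranks AVP and oxytocin as the most significant genes in hypothalamus. In the means used here, hypothalamic AVP was lower in POST (928 and 663, -0.48 on the log2 scale) and was not apart by 2-fold. In the remaining tissues AVP was lower in POST. With 0.05 added, AVP in uterus, ovary and liver and AVPR1B in ovary passed the 4-fold rule. UCN3, a urocortin of the CRH family, was at 0.484 in the PRE and 0.558 in the POST hypothalamus. Its CPM ratio was 0.708 (0.538 to 0.928), so that its direction depended on the measure.

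Of the 4 matched steroid synthesis genes, 3 were apart in ovary, 2 in adipose tissue, and 1 each in hypothalamus and endometrium. STAR, which brings cholesterol into mitochondria, was at RPKM 35.2 in the PRE and 652 in the POST ovary, CYP11A1 (the side-chain cleavage enzyme) at 127 and 660, and HSD3B1, which makes progesterone, at 69.5 and 797. CYP17A1, needed for cortisol and androgens, was at 77.5 and 84.9. A corpus luteum was part of the POST ovary only. Outside the ovary HSD3B1 was low, and lower in POST, in hypothalamus (1.18 and 0.143) and endometrium (1.37 and 0.121), and both HSD3B1 (0.113 and 1.15) and CYP11A1 (0.087 and 1.37) were higher in POST adipose tissue. Liver genes were at a median of 4.25% of their liver level in that group, and CYP11A1 was at 20.1 and 22.4 and HSD3B1 at 4.02 and 3.495 in liver. The part of liver RNA in these differences was not tested. The row named HSD3B1 belongs to a gene family whose members share sequence, so its low levels are uncertain.

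Of the melanocortin genes, MRAP2, an accessory protein of melanocortin receptors, was at RPKM 6.42 in the PRE and 38.2 in the POST uterus. MC4R was lower in POST uterus and endometrium, as given above, and was at 0.014 and 0.791 in adipose tissue. PCSK2 was at 0.727 and 0.0052 in endometrium, but its CPM ratio of 0.474 (0.395 to 0.567) did not pass the rule. CPE was at 2.12 and 13.998 in muscle, where the smooth muscle genes MYH11 (6.90 and 174) and ACTG2 (3.16 and 77.2) were higher in POST and the adipocyte genes lower. Their part in the CPE difference was not tested.

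Of the transcripts that the glucocorticoid receptor is known to induce, FKBP5 and ZBTB16 were apart in uterus, FKBP5 in endometrium and TAT in adipose tissue. FKBP5, an HSP90 co-chaperone of the receptor and one of its most used target genes, was at RPKM 8.55 in the PRE and 64.5 in the POST uterus (2.89 on the log2 scale) and at 10.98 and 56.01 in endometrium (2.33). ZBTB16, another target, was at 2.97 and 18.6 in uterus (2.57), and at 3.42 and 9.11 in endometrium (1.36). In reads ZBTB16 differed less, with a CPM ratio of 3.84 (3.66 to 4.03) in uterus, below the rule, and of 1.43 (1.35 to 1.52) in endometrium, below 2-fold, while that of FKBP5 was 5.80 in uterus and 4.18 in endometrium. In human cells both are also induced by progesterone. The POST heifers were in the luteal phase and also older and heavier, so that puberty, progesterone, age and season cannot be told apart. No cause of these differences was tested. The median over the 10 matched target genes was 0.79 in uterus and 0.37 in endometrium, and between -0.38 and -0.10 in the other 6 tissues.

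The other targets did not follow FKBP5 in every case. In uterus ERRFI1 was 1.45 and KLF9 0.89 on the log2 scale, while DDIT4 was -0.92 and TAT -1.24. In liver FKBP5 was at 30.7 and 17.7, and in adipose tissue at 179 and 97.3, lower in POST in both. The level of NR3C1 was lower in POST uterus and endometrium, where FKBP5 was higher, and higher in POST adipose tissue, where FKBP5 was lower. In liver, where FKBP5 was also lower, NR3C1 was nearly level, at 9.72 and 9.91 (CPM ratio 0.941). A relation between the 2 genes was not tested. Chaperones that hold the receptor, HSP90AA1 (591 and 315) and FKBP4 (148 and 112), were lower in POST uterus.

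**Figure D5:**
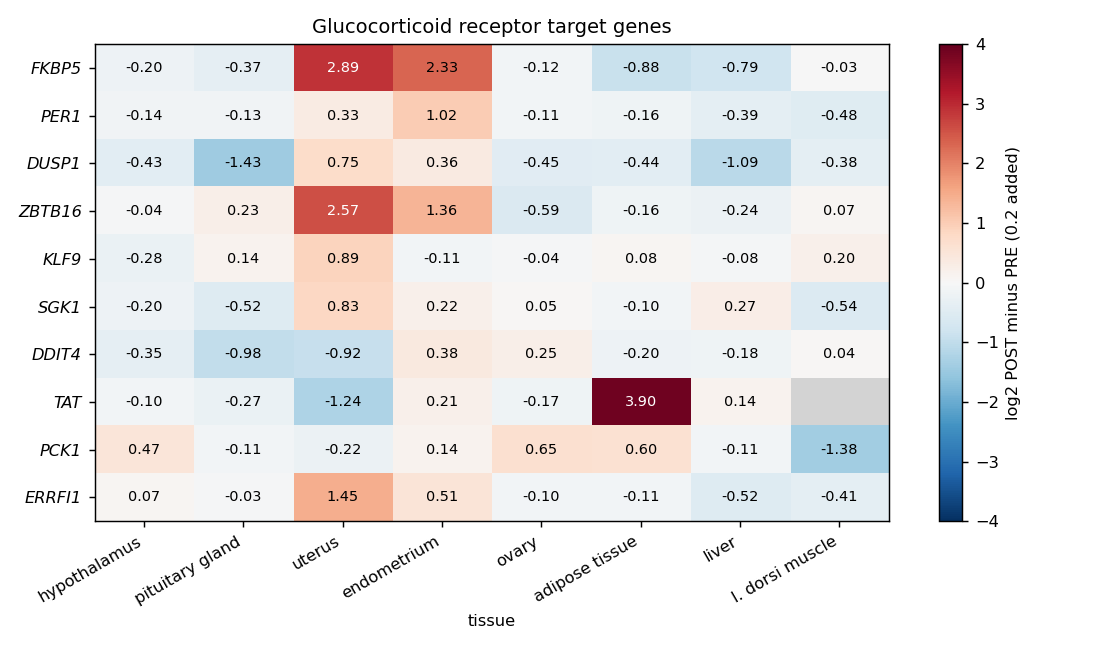
Differences between the stages (log2 POST minus log2 PRE mean RPKM, 0.2 added) of 10 glucocorticoid receptor target genes in 8 tissues. Red is higher in POST, blue is lower, and the grey cell was not compared. FKBP5 (2.89 and 2.33) and ZBTB16 (2.57 and 1.36) are the reddest of the uterus and endometrium columns, and TAT (3.90) stands alone in adipose tissue.

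The genes with the most similar profile were named for each member by Pearson's r over the 16 group means on log2 RPKM with 0.2 added, which is a description over points that share animals and has no test. CRH was most like GBX2 (0.998), NHLH2 (0.995) and GRIN2B (0.995), of which GRIN2B is a glutamate receptor subunit. All 3 were highest in POST hypothalamus, at RPKM 1.48 to 2.34. CRHBP was most like SHD, NDST4 and the muscarinic receptor CHRM1 (0.961 to 0.959). Among the genes named for POMC were LHX3, a transcription factor of pituitary development, and CLDN9 (both 0.993). HSD11B1 was most like UPP2 (0.974), TM4SF5 (0.973) and ACOT6 (0.972), all highest in liver.

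HSD11B2 was most like HOXD10 (0.966), the mucin gene MUC1 (0.964) and the epithelial transcription factor SPDEF (0.958), the first highest in PRE uterus and the others in POST endometrium. CRHR1 had no such close neighbour, with KCNT1 (0.861) first, and neither did NR3C1, with ARHGEF6 at 0.848, then FOXN2 (0.768) and TBX18 (0.762), all highest in adipose tissue. For MC2R no gene is given because its level never reached 0.2.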

How the data were processed

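RNA of 8 tissues of PRE and POST heifers was measured in 61 libraries of 16 groups, taken from the sample labels. The authors made TruSeq libraries, mapped single reads (shorter in some hypothalamus libraries) to UMD 3.1 with CLC Genomics Workbench, and deposited 2 values per gene and group: the average count of unique reads, and the average RPKM, which divides reads by exon length and library total. Some unique reads do not enter RPKM. Nothing per library was used here, so the planned limma fit was replaced by its planned substitute, differences of log2(RPKM + 0.2) with rules of size (4-fold, and 2-fold), and no p-value is given. Each member was a single row of the table. Whether same-numbered heifers pair was not checked, since stages are different animals.

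Rows were named by the symbol of the row, then by UniProt entry, then by the study's own list, and 10 by their flanking genes in the RefSeq table of ARS-UCD 2.0, which was used for names only. CRHBP (flanked by S100Z and PDE8B), HSD11B1 (between TRAF3IP3 and G0S2) and NR3C1 (between ARHGAP26 and YIPF5) are 3 such rows, and their identity rests on that order, as it does for DUSP1, ZBTB16, TAT and ERRFI1. The gene span of CRHBP was close to that in RefSeq (14049 against 14050 bp). Those of HSD11B1 (45159 against 76362) and NR3C1 (114206 against 147036) were shorter, and each was the only gene between its flanks. Left without a symbol were 10632 rows, and 10 listed pathway genes, CRHR2, TBX19 and CYP21A2 among them, were not matched. The adipose tissue is called subcutaneous in the table but abdominal in the methods. Members and lists were chosen with earlier results of these data known. All listed pathway genes past the rule are named, with up to 3 of the highest level per role. Of the genes alike in profile to the members, 1 is not reported here. Counting intervals are exact and conditional on the total. The calculation was tested on simulated data. Tools were Python 3.11.15, numpy 2.4.6, scipy 1.17.1, pandas 2.3.3 and matplotlib 3.10.9.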

Additional observations from a re-analysis of the deposited data

How the results depend on the processing

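The alternatives changed 1 choice at a time. With 1 added to RPKM in place of 0.2, 2 of the 4 pairs of gene and tissue stayed apart (CRHR1 in endometrium and POMC in ovary), and 12 in place of 19 pairs of the pathway list. The 2-fold rule gave 10 and 43. With 0.05 added, CPM in place of RPKM, centring on the median of all genes, other limits on low values or summed rows, the members' count was 4 or 5 and that of the list 17 to 25. CPM exchanged HSD11B1 in adipose tissue for CRHR1 in ovary, and in the list PCSK2 in endometrium and ZBTB16 in uterus for MC3R and AVPR1B in ovary. Leaving out the ovary, the adipose tissue or the pituitary gland, chosen after seeing the data, gave 3, 3 and 4, and 15, 14 and 19 for the list. The tissue count was 7 to 10, and HSD11B1 exceeded HSD11B2 in 11 groups with every amount added. The count of groups for these enzymes was made on RPKM only. Of 156 single differences under the alternatives 4 changed sign, the largest of them HSD11B1 in endometrium on CPM (0.05).

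No paired analysis was possible because only group means were used, and leaving out each replicate was not run for the same reason. Without a spread between heifers, a difference cannot be told from variation between animals, and the levels of MC2R, and of CRH and CRHBP outside their main tissues, rest on a few reads.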
